A study of Homo sapiens with 12 samples.

Results

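The genes described here repair double-strand DNA breaks by homologous recombination and remove crosslinks between DNA strands through the Fanconi anaemia pathway. They were a list of 36 gene symbols matched to the symbol column of the deposited expression table. Of the 36, 35 matched an entry among 25787 entries with a symbol, and 34 reached the level needed for testing, a mean of at least 10 normalised reads over all 12 libraries. The entry of FANCM, which did not reach it, is listed at 0 in 11 libraries and at 2.16 in siDHX9 replicate 3. Expression of FANCF was not analysed here, although its promoter was among those searched below. The RNA came from TC-71, an established Ewing sarcoma cell line grown in serum-containing medium, in 4 groups of 3 libraries that the labels call biological replicates. In one experiment, cells labelled wild type received YK4279 (the spelling of the sample labels), at a dose labelled 2 mM, or its solvent DMSO, each for 16 hours. In the other, cells labelled as a DHX9 knockdown (siDHX9) or a scrambled knockdown were reverse-transfected with Lipofectamine RNAiMAX and collected at 48 hours. The treatment protocol speaks of siRNAs and the design text of shRNAs. YK4279 is a small molecule known as an inhibitor of the Ewing sarcoma fusion protein EWS-FLI1, and DHX9 is an RNA helicase reported to bind that fusion. All 12 libraries are of a single cell line, so p-values here measure the spread between cultures of that line.

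Homologous recombination copies lost sequence from the sister chromatid and is therefore used mainly in S and G2 phase. Broken ends are resected to single strands, a recombinase is loaded on them by BRCA2 with BRCA1, BARD1 and PALB2, and the joined molecules are later dissolved by BLM or cut by nucleases. In the Fanconi pathway a core complex with the ubiquitin-conjugating enzyme UBE2T modifies the FANCD2-FANCI clamp at a stalled crosslink, which is then unhooked and repaired by recombination. Cultured Ewing sarcoma cells are known for their sensitivity to PARP inhibitors, which are most toxic to cells with weak homologous recombination.

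Levels below are normalised read counts, that is, reads per gene divided by a size factor for each library. They are not divided by gene length, so they are compared within a gene and not between genes. Sequencing depth recovered from the table was 48323991 to 53659651 reads in the YK4279 libraries, 38568983 to 65547727 in DMSO, 46888217 to 49350237 in siDHX9 and 47769636 to 51041169 in scrambled libraries. A ribosomal RNA entry took 8.79% ± 1.07 of reads with YK4279, 5.19% ± 0.244 with DMSO, 2.71% ± 0.915 with siDHX9 and 4.09% ± 0.963 with scrambled RNA (SD, n = 3 each). DHX9, which shares its entry with NPL, averaged 20608 ± 1098 normalised reads in siDHX9 libraries and 32689 ± 2132 in scrambled libraries (SD, n = 3 each), a log2 change of -0.66 (adjusted p = 4.54e-05, limma). All 9 Ewing sarcoma markers examined were measured, CD99 at 22230 normalised reads or more in every library. Of 9 defining genes of blood, endothelial, epithelial and muscle cells, CD3E and KRT5 were at 0 in all 12 libraries and the summed level of the list lay between 3.7 and 28.9. In RNA from whole cultures, fewer cells of a kind and less RNA per cell cannot be told apart.

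Promoters were searched for letters known as binding motifs of the cell-cycle factors of the E2F family, since many of the genes moved together with YK4279. RefSeq promoter windows of 300 bases (250 before and 50 after the annotated start, build GRCh38.p14) were found for 33 of the 36 genes. The E2F letters TTTCCCGC, TTTCGCGC, TTTGCCGC or TTTGGCGC, on either strand, occurred in 6 of these 33 windows (18.2%), against 3.31% of 35116 promoters in the table. Of the genes called lower with YK4279, 5 of the 20 with a window held such letters, against 1 of the 11 genes measured but not called. The GC content of the windows was higher too, with a median of 64.7% for the 33 windows and 58.7% for all promoters. The 6 windows are shown around the match, each on the strand of its gene, in lower case with the matching letters in capitals.

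EXO1 (end resection), chr1:241848168-241848233, plus strand:
EXO1: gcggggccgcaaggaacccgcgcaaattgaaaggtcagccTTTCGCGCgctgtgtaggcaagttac
GEN1 (junction nuclease), chr2:17753830-17753898, plus strand:
GEN1: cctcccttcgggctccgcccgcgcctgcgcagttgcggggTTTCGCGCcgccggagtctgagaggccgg
FANCD2 (Fanconi clamp), chr3:10026395-10026466, plus strand:
FANCD2: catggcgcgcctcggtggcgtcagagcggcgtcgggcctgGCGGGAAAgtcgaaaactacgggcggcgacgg
XRCC2 (recombinase paralog), chr7:152676112-152676160, minus strand:
XRCC2: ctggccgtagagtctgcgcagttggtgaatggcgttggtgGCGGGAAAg
FANCA (Fanconi core), chr16:89816772-89816859, minus strand:
FANCA: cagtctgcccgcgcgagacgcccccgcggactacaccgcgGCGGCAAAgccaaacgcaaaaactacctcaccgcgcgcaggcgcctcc
FANCC (Fanconi core, not called), chr9:95317708-95317795, minus strand:
FANCC: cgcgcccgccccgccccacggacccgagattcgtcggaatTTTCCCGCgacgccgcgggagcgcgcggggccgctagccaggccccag

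With the annotated start counted as base 1, the match began at base 5 in EXO1, 2 in GEN1, -2 in FANCD2 and 22 in XRCC2, all within 22 bases of the start, and further upstream, at base -172, in FANCA and -46 in FANCC. In FANCD2, XRCC2 and FANCA the letters lie on the opposite strand, so the capitals show them reversed and complemented. FANCC holds a second match outside the stretch shown. Neither of a pair of other cell-cycle motifs was more frequent than in all promoters by more than a few points. TTTGAA, the letters of the cell cycle homology region, occurred in 12.1% of the 33 windows and 15.2% of all promoters, and the CCAAT box letters CCAAT in 36.4% and 34.6%. A match describes the letters only and shows no binding.

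Much of the recombination and crosslink repair machinery was lower after YK4279. Of the 34 genes measured, 22 were lower in YK4279 than in DMSO cells at an adjusted p under 0.05 (limma, Benjamini-Hochberg adjustment over 14225 genes), against 6.49% of all genes tested. None of the 34 was higher by limma, against 7.33% of all genes tested. By edgeR and DESeq2 none was higher, against 939 and 1267 of all 14225 genes. At an unadjusted p under 0.05 none of the 34 was higher either, a cut for which the share of all genes was not computed. In 27 of the 34, all 3 YK4279 libraries were below all 3 DMSO libraries, against 20.4% of all genes tested. The median log2 change of the 34 genes was -0.51, against 0.02 over all 14225 genes, and single changes ran from -1.13 for BRIP1 to 0.38 for RAD52, which was not called. The call held under all 23 alternative settings for 16 of the 22. It was lost in 8 settings for ATR, 7 for RAD51D, 5 each for FANCA and GEN1, 2 for FANCG and 1 for RAD51C.

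**Figure D1:**
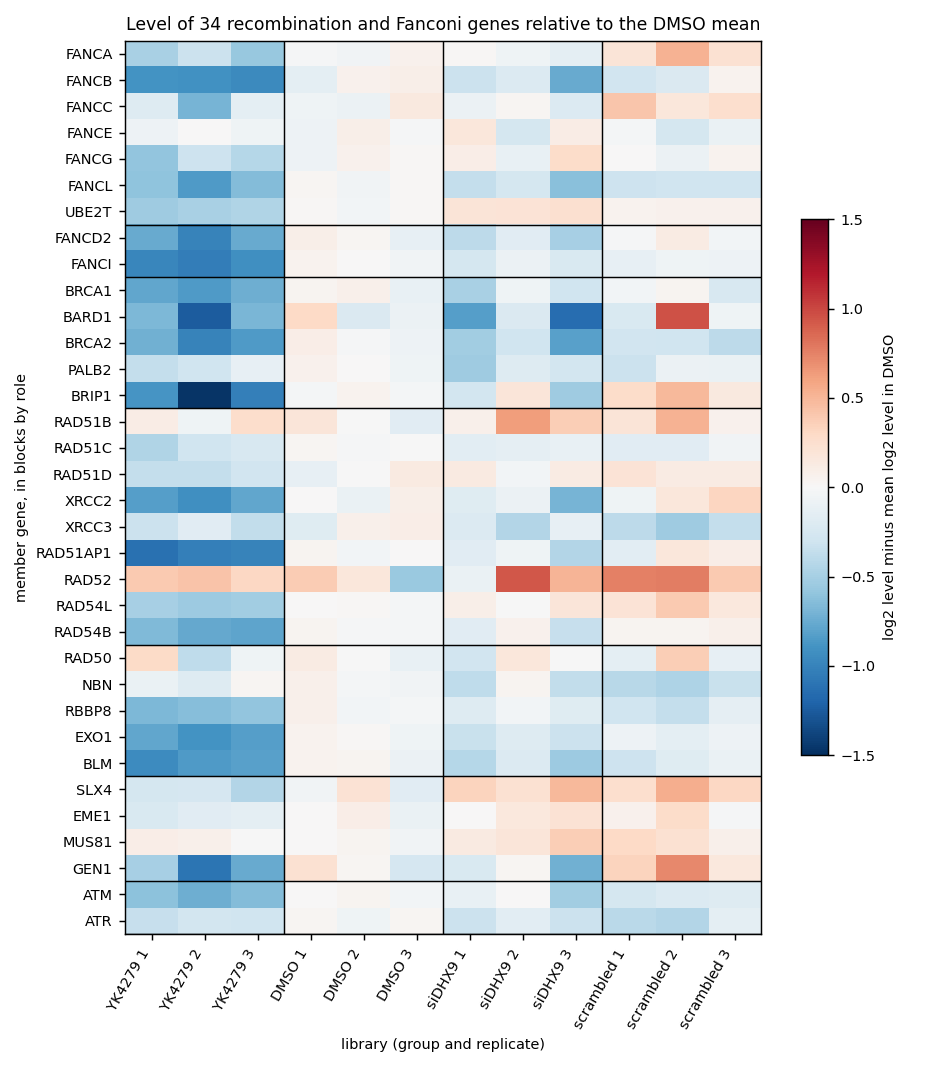
Heat map of the 34 measured genes (rows, in blocks by role) in the 12 libraries (columns), coloured by log2 normalised read count minus the mean log2 level of that gene in DMSO. The 3 YK4279 columns are blue for most genes, while the siDHX9 and scrambled columns mix blue and red.

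The Fanconi core complex is the ubiquitin ligase of the pathway, and 5 of 7 measured genes for this complex and its conjugating enzyme fell. FANCB, a structural core subunit encoded on the X chromosome (14861529 to 14891191 in hg19), had 240.0, 237 and 229.7 normalised reads in YK4279 libraries, against 404, 467 and 474 in DMSO. The groups did not overlap, and FANCB was 1.89-fold lower (log2 change -0.92 ± 0.15 SE, adjusted p = 0.0014). FANCL, the catalytic subunit (chromosome 2, 58386380 to 58468515), had 918, 769 and 884 in YK4279, against 1424, 1342 and 1411 in DMSO, and was 1.63-fold lower (log2 change -0.70 ± 0.10, adjusted p = 0.000825). UBE2T, the conjugating enzyme that works with FANCL (chromosome 1, 202300786 to 202311094), had 3953, 4068 and 4198 with YK4279, against 5806, 5561 and 5792 with DMSO. All YK4279 values were below all DMSO values for both genes, and UBE2T was 1.4-fold lower (log2 change -0.49 ± 0.06, adjusted p = 0.000245). FANCA and FANCG, which sit together in the core, fell by 0.46 (adjusted p = 0.023) and 0.44 (adjusted p = 0.0139) on the log2 scale. FANCC and FANCE, which form a further module of the core, did not pass the test. FANCC had a log2 change of -0.34 (95% interval -0.67 to -0.01, adjusted p = 0.155), and FANCE one of -0.04 (95% interval -0.29 to 0.20, adjusted p = 0.828).

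The clamp that this complex modifies fell in both its parts. FANCI (chromosome 15, 89787194 to 89860362) had 2791, 2674 and 2910.4 normalised reads in YK4279 libraries, against 5716, 5522 and 5302 in DMSO. That was a 1.97-fold lower level, with a log2 change of -0.98 ± 0.07 SE (adjusted p = 3.09e-06) and no overlap between groups. FANCD2 (chromosome 3, 10068071 to 10143620), whose promoter holds the letters shown above, had 1586, 1336 and 1585 in YK4279, against 2847, 2749.7 and 2469 in DMSO. FANCD2 was 1.79-fold lower, with a log2 change of -0.84 ± 0.10 (adjusted p = 0.000232), again without overlap. The end of the FANCI entry shares 829 bases with the POLG entry, which had 2254 to 2417 normalised reads with YK4279 and 1845 to 2105 with DMSO, higher where FANCI was lower.

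Among the BRCA proteins and their partners, 3 of 5 fell. BRIP1, a helicase that binds BRCA1 (chromosome 17, 59756547 to 59940920), had 254, 169.9 and 232 normalised reads in YK4279 libraries, against 463, 489 and 464 in DMSO. Every YK4279 library was far under the DMSO ones, and BRIP1 showed the largest change of the 34 genes, 2.18-fold lower (log2 change -1.13 ± 0.18 SE, adjusted p = 0.00145). BRCA2, the protein that loads the recombinase (chromosome 13, 32889616 to 32973809), had 1247, 1029.6 and 1143 with YK4279, against 2205, 2039.7 and 1952 with DMSO, a 1.81-fold lower level (log2 change -0.86 ± 0.12, adjusted p = 0.000533). BRCA1, which promotes resection (chromosome 17, 41196313 to 41322420), had 298, 285 and 309 with YK4279, against 529.7, 539 and 474 with DMSO. The groups stood apart for both, and BRCA1 was 1.73-fold lower (log2 change -0.79 ± 0.13, adjusted p = 0.0014). The BRCA1 entry carries further symbols and overlaps that of NBR2, which had 73.4 to 91.9 normalised reads in YK4279 and 80.6 to 121 in DMSO. BARD1, the binding partner of BRCA1, had a log2 change of similar size, -0.87, but a wide interval of -1.54 to -0.20 at its low level (77.5 ± 16.6 in YK4279 and 142 ± 27.7 in DMSO, SD, n = 3 each), and did not pass by limma (adjusted p = 0.0787). It was called lower by DESeq2, with 6 libraries only, and without scrambled or siDHX9 replicate 2 (adjusted p = 0.00937 to 0.0402). PALB2, which bridges BRCA1 and BRCA2, had a log2 change of -0.26 (95% interval -0.49 to -0.03, adjusted p = 0.123). It was called lower with 6 libraries only (limma adjusted p = 0.0254).

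Of 9 genes for strand exchange, 6 fell and RAD51AP1 changed most. RAD51AP1, which stimulates joint molecule formation (chromosome 12, 4647950 to 4669214), had 296, 315 and 320.4 normalised reads in YK4279 libraries, against 663, 625 and 643 in DMSO. Spread within each group was small next to this gap, and the gene was 2.07-fold lower (log2 change -1.05 ± 0.12 SE, adjusted p = 0.000122). XRCC2, a recombinase paralog (chromosome 7, 152341864 to 152373250), had 711, 668 and 737 with YK4279, against 1275, 1179 and 1347 with DMSO, a 1.79-fold lower level (log2 change -0.84 ± 0.14, adjusted p = 0.00201). RAD54B, a DNA translocase that remodels joint molecules and shares its entry with FSBP (chromosome 8, 95384188 to 95487343), had 1270.0, 1173 and 1159.5 with YK4279, against 2063, 1980.1 and 1972 with DMSO. It was 1.67-fold lower (log2 change -0.74 ± 0.10, adjusted p = 0.000331), and its relative RAD54L was 1.44-fold lower (log2 change -0.52 ± 0.08, adjusted p = 0.0011). The paralogs RAD51C and RAD51D, which act with XRCC2 and with each other in complexes, fell by 0.33 each on the log2 scale (adjusted p = 0.00941 and 0.0373). The RAD51D entry also carries the symbols RFFL and RAD51L3-RFFL, so its value is not of RAD51D alone. The other paralogs and the annealing protein RAD52 were not called in the main test. RAD51B had a log2 change of 0.10 (95% interval -0.28 to 0.48), XRCC3 of -0.29 (-0.53 to -0.05) and RAD52 of 0.38 (-0.22 to 0.98). XRCC3 was called lower with 6 libraries only and when rescaled without the ribosomal RNA entry (limma adjusted p = 0.0306 to 0.0417). XRCC3 shares 77.0% of its entry with the joint entry of APOPT1 and KLC1, whose mean of 10872 normalised reads is far above that of XRCC3, and the strand setting of the counting was not stated in the labels or the table.

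**Figure D2:**
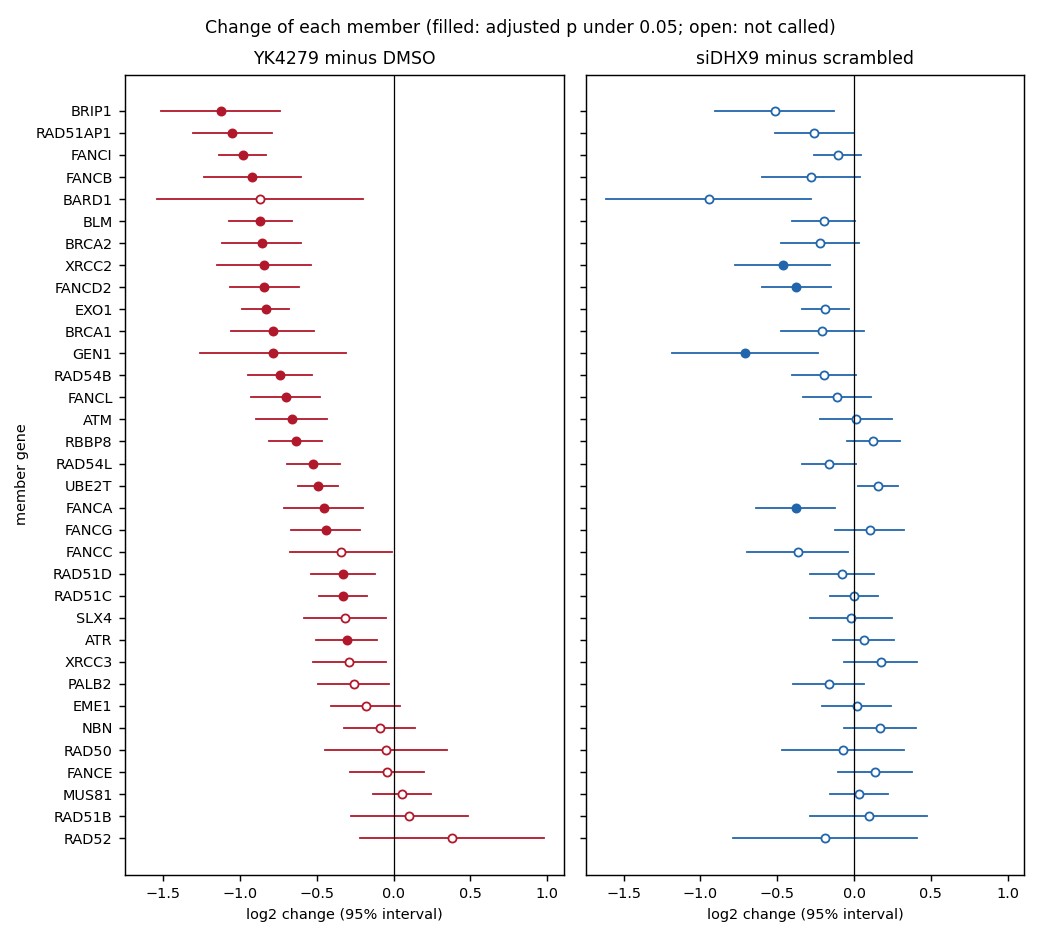
Log2 change of each of the 34 measured genes with its 95% interval, for YK4279 minus DMSO (left) and siDHX9 minus scrambled (right); filled points have an adjusted p under 0.05. On the left 22 filled points lie below 0 and none above, and on the right 4 lie below 0.

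Of 5 genes for resection and dissolution, 3 fell. EXO1, the long-range resection nuclease (chromosome 1, 242011493 to 242053239), had 2238, 2062 and 2167 normalised reads in YK4279 libraries, against 3965, 3869.9 and 3683 in DMSO, a 1.78-fold lower level (log2 change -0.83 ± 0.07 SE, adjusted p = 1.24e-05). BLM, the helicase that dissolves joint molecules (chromosome 15, 91260558 to 91358692), had 1388, 1486 and 1517 with YK4279, against 2769, 2745 and 2508 with DMSO, a 1.83-fold lower level (log2 change -0.87 ± 0.10, adjusted p = 0.000102). RBBP8, which encodes the resection starter CtIP (chromosome 18, 20513295 to 20606447), had 2208, 2274 and 2339 with YK4279, against 3729, 3428 and 3450.3 with DMSO. None of these 3 genes had overlapping groups, and RBBP8 was 1.55-fold lower (log2 change -0.64 ± 0.08, adjusted p = 0.000277). RAD50 and NBN, subunits of the complex that first binds a broken end, were not called. RAD50 averaged 285 ± 64.8 with YK4279 and 290.4 ± 23.3 with DMSO, and NBN 2009 ± 158 with YK4279 and 2138 ± 106 with DMSO (SD, n = 3 each). Their 95% intervals for the log2 change ran from -0.45 to 0.35 and from -0.32 to 0.14.

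Junction and crosslink nucleases were the group with the smallest share called, 1 of 4. GEN1, which cuts Holliday junctions (chromosome 2, 17935125 to 17967178), had 138, 91.5 and 116 normalised reads in YK4279 libraries, against 229.8, 201 and 164 in DMSO, with no overlap (1.72-fold lower, log2 change -0.78 ± 0.22 SE, adjusted p = 0.0325). The GEN1 entry lies wholly inside that of SMC6, which had 627, 421 and 572 with YK4279, against 833, 741 and 695 with DMSO, so reads could be split between them. MUS81, the catalytic part of another structure-specific nuclease, was not called by limma, with a log2 change of 0.06 (95% interval -0.13 to 0.24), and neither was its partner EME1 at -0.18 (-0.41 to 0.04) or the scaffold SLX4 at -0.32 (-0.58 to -0.05). SLX4 was called lower by DESeq2 and with 6 libraries only (adjusted p = 0.0481 to 0.0494). All 3 YK4279 libraries were still below all 3 DMSO libraries for EME1 and SLX4.

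Both kinases that start the signalling from damaged DNA fell. ATM, which responds to breaks (chromosome 11, 108093211 to 108239826), had 1986, 1839.9 and 1948 normalised reads in YK4279 libraries, against 3059, 3129 and 2964 in DMSO. It was 1.59-fold lower (log2 change -0.66 ± 0.11 SE, adjusted p = 0.00165). ATR, which responds to single-stranded DNA (chromosome 3, 142168077 to 142297668), had 1544, 1628 and 1595 with YK4279, against 2012, 1884 and 1999 with DMSO, a log2 change of -0.31 ± 0.09 (adjusted p = 0.0416). The ATR call was lost in 8 of the 23 alternative settings (limma adjusted p = 0.0538 to 0.137). Among them were the replicate block and each YK4279 or DMSO library left out. The groups did not overlap for either kinase.

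**Figure D3:**
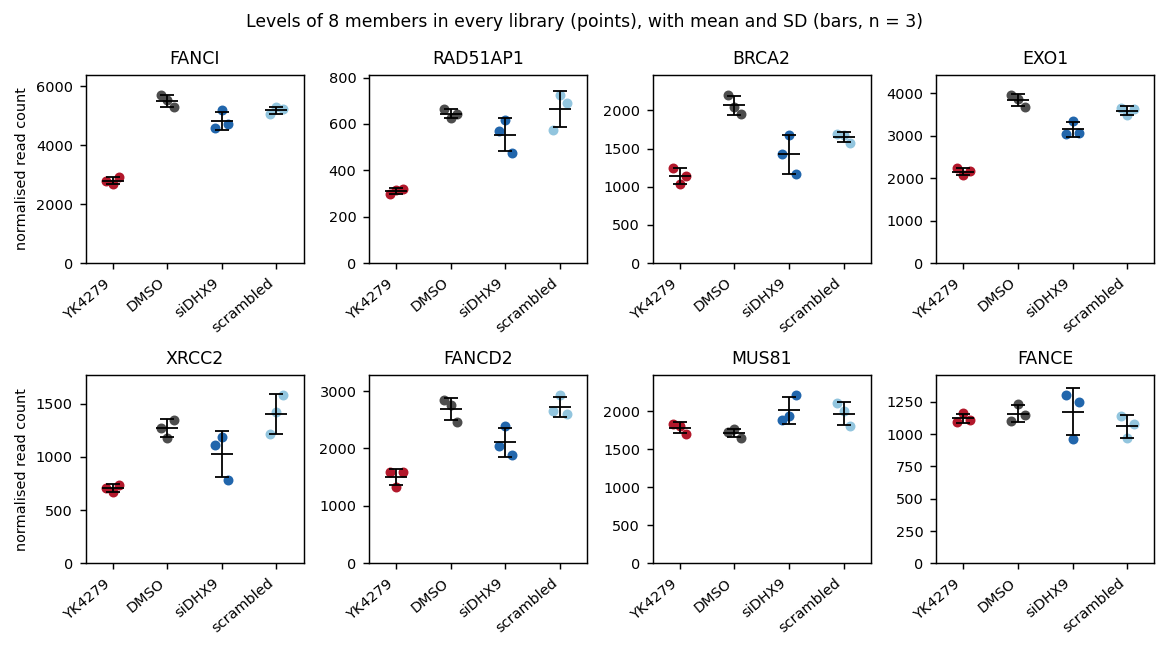
Normalised read counts of 8 of the genes in each library (points), with the mean and SD of each group (bars, n = 3); axes start at 0. For FANCI, RAD51AP1, BRCA2, EXO1, XRCC2 and FANCD2 all 3 YK4279 points lie below all 3 DMSO points, while for MUS81 and FANCE they overlap.

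Genes of other repair pathways were read from the same fit of YK4279 against DMSO. Among 48 further Fanconi and recombination genes, 10 fell and 2 were higher, with a median log2 change of -0.17. MCM8, a helicase of recombination, averaged 1853 ± 135 in YK4279 and 3287 ± 106 in DMSO (log2 change -0.83, adjusted p = 0.000102), and FIGNL1 and RMI2 fell by 0.68 each (adjusted p = 0.00791 and 0.00485). Of 24 checkpoint signalling genes 7 fell, led by CLSPN, an adaptor of ATR signalling, at -0.90 (adjusted p = 0.000699). End joining had 5 of 16 lower, with POLQ, the polymerase of the backup joining pathway, at -0.91 (adjusted p = 0.000252), and mismatch repair had 4 of 7 lower. Base excision repair had 4 lower and 1 higher of 18, and NEIL3, a glycosylase that also unhooks crosslinks, was 2.01-fold lower (log2 change -1.01, adjusted p = 3.53e-05). In nucleotide excision repair 3 of 20 genes were higher.

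In YK4279 against DMSO, markers of S phase and proliferation moved with the recombination genes. Of 24 such genes measured, 19 fell with YK4279, with a median log2 change of -0.55. CDK1, the kinase that drives mitosis, averaged 1360 ± 75.1 in YK4279 and 5248 ± 199 in DMSO (SD, n = 3 each), and TOP2A, a topoisomerase of dividing cells, fell by 1.85 on the log2 scale (adjusted p = 0.000622). Per library, the median over the recombination and Fanconi genes relative to the DMSO mean was -0.52, -0.59 and -0.55 in YK4279, close to the medians of -0.56, -0.57 and -0.55 over the proliferation markers. The part of these markers and of the higher ribosomal RNA share in the result was not tested. Rescaling the libraries without the ribosomal RNA entry gave 23 genes lower and a median of -0.55.

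**Figure D4:**
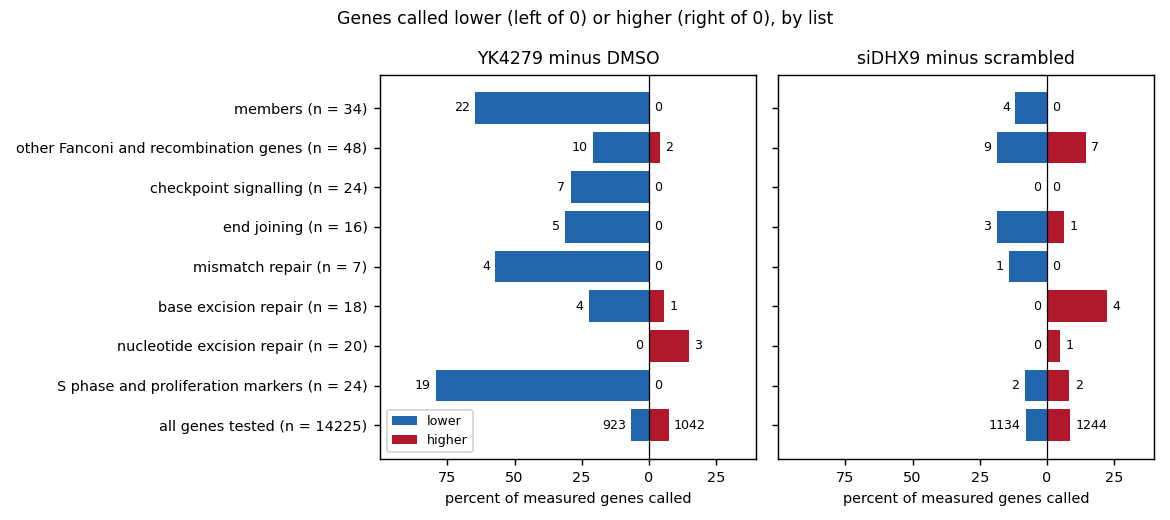
Percent of the measured genes of each list called lower (left of 0) or higher (right of 0) at an adjusted p under 0.05, with the number of genes at each bar end, for YK4279 minus DMSO (left) and siDHX9 minus scrambled (right). With YK4279 the 34 recombination and Fanconi genes (22 lower) and the 24 proliferation markers (19 lower) have the longest bars.

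DHX9 knockdown moved few of these genes. Only 4 of 34 were lower in siDHX9 than in scrambled cells and none was higher (limma), against 7.97% lower and 8.75% higher among all genes tested, so the share is near the background. The median log2 change was -0.14, against -0.00 over all genes. In 6 genes all siDHX9 libraries were below all scrambled libraries, against 14.4% of all genes. Only UBE2T was above in all 3, against 14.9% of all genes. At an unadjusted p under 0.05, 9 genes were lower and 1, UBE2T, was higher (limma), a cut for which the share of all genes was not computed. By edgeR 5 genes were lower and none higher, against 1248 lower and 1267 higher of all 14225 genes. By DESeq2 7 were lower and 1, UBE2T, higher, against 1637 lower and 1558 higher of all 14225.

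The 4 genes lower with siDHX9 belong to 4 different roles. Each was also lower with YK4279, as were 22 of the 34 genes. The share of all genes lower in both comparisons was not computed. FANCA (chromosome 16, 89803959 to 89883066) had 398, 374 and 353 normalised reads in siDHX9 libraries, against 449.9, 564 and 459 in scrambled, a log2 change of -0.38 ± 0.12 SE (adjusted p = 0.0429). FANCD2 had 2037, 2386 and 1894 with siDHX9, against 2645, 2931 and 2603 with scrambled RNA, also a log2 change of -0.38 ± 0.10 (adjusted p = 0.0265). In both genes the highest siDHX9 library stayed under the lowest scrambled one. XRCC2 had 1111, 1186 and 780.3 with siDHX9, against 1211, 1418 and 1580.2 with scrambled RNA (log2 change -0.47 ± 0.14, adjusted p = 0.0398). GEN1 had 168, 200.3 and 119 with siDHX9, against 247, 325 and 219 with scrambled RNA (log2 change -0.71 ± 0.22, adjusted p = 0.0429). The groups did not overlap for these 2 either, although XRCC2 replicate 2 of siDHX9 came near the lowest scrambled library. SMC6, inside whose entry GEN1 lies, had 576, 905 and 522 with siDHX9, against 876, 1062 and 856 with scrambled RNA.

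Of the genes that fell with YK4279, 18 were not called by limma after knockdown. FANCI averaged 4827 ± 318 in siDHX9 and 5190.1 ± 121 in scrambled libraries (log2 change -0.11, 95% interval -0.26 to 0.05), and ATM 2669 ± 482 in siDHX9 and 2619.7 ± 64.6 in scrambled (SD, n = 3 each). BRCA2 had a log2 change of -0.22 (-0.48 to 0.03), BRCA1 of -0.21 (-0.48 to 0.06) and RAD51AP1 of -0.26 (-0.52 to -0.00). BRIP1 was called lower by DESeq2 and without YK4279 or siDHX9 replicate 2 (adjusted p = 0.00631 to 0.0493). EXO1, whose groups did not overlap, was called lower by DESeq2, without siDHX9 replicate 2 and when rescaled without the ribosomal RNA entry (adjusted p = 0.0322 to 0.0484). BLM, BRCA2 and RAD54B were called lower only without siDHX9 replicate 2, and UBE2T higher only by DESeq2. The rest of the 18 were called under no alternative. BARD1, which limma called in neither comparison, had the largest estimate after knockdown, -0.95, with an interval of -1.62 to -0.28 (limma adjusted p = 0.0519). It was called lower by edgeR and DESeq2, and without scrambled replicate 1 or siDHX9 replicate 2 (adjusted p = 0.0110 to 0.0488). Its scrambled libraries held 119, 273 and 134 normalised reads.

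These calls moved with single libraries. The total called was 11 (10 lower and 1 higher) without siDHX9 replicate 2, and 0 without siDHX9 replicate 1, siDHX9 replicate 3 or scrambled replicate 2. It was 2 without scrambled replicate 1, DMSO replicate 3 or YK4279 replicate 1, and 1 without DMSO replicate 1, DMSO replicate 2 or YK4279 replicate 3. With the 6 knockdown libraries alone it was 0, and no call held in every alternative. Within the group siDHX9 replicate 2 was the highest of the 3 libraries for 23 of the 34 genes, while replicates 1 and 3 were each the lowest for 14. Relative to DMSO, the median over the 34 genes was -0.19, -0.06 and -0.25 in the 3 siDHX9 libraries, against -0.05, 0.06 and -0.03 in the scrambled libraries.

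**Figure D5:**
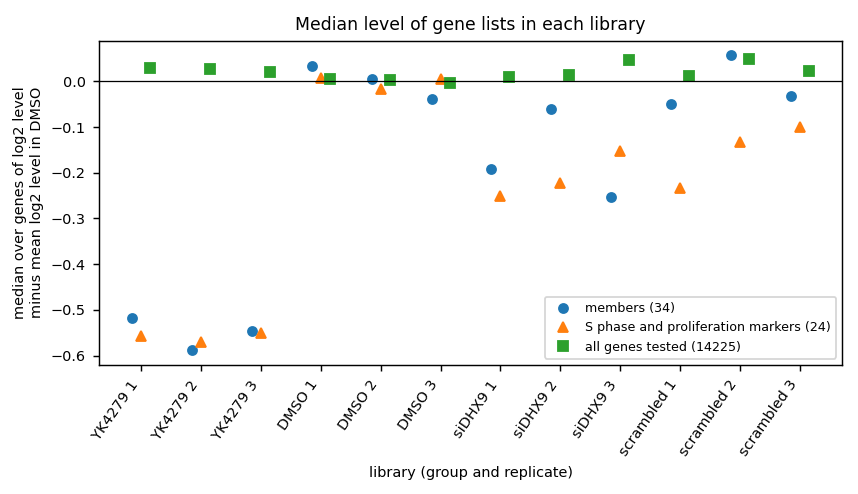
Median over genes of the log2 level minus the mean log2 level in DMSO, in each of the 12 libraries, for the 34 recombination and Fanconi genes (circles), 24 S phase and proliferation markers (triangles) and all 14225 genes tested (squares). Both lists lie between -0.52 and -0.59 in the YK4279 libraries, while the squares stay near 0 in every library.

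After knockdown, 2 of the 6 other repair lists had calls in both directions. Further Fanconi and recombination genes had 9 lower (18.75%) and 7 higher (14.6%) of 48, against 7.97% and 8.75% of all genes tested. Among the lower ones were REV3L, the catalytic part of a lesion-bypass polymerase, at -0.61 (adjusted p = 0.00546) and RAD18, a ubiquitin ligase of the same pathway, at -0.61 (adjusted p = 0.018). End joining had 3 lower and 1 higher of 16, mismatch repair 1 lower of 7 and nucleotide excision repair 1 higher of 20. Of 24 checkpoint genes limma called none, with 4 at an unadjusted p under 0.05 (3 lower and 1 higher), while edgeR called 1 and DESeq2 3. Base excision repair had 4 higher and none lower of 18, that is 22.2% higher against 8.75% of all genes tested. PARP2, a gene of that list which marks strand breaks, rose to 4906 ± 258 with siDHX9, against 3898 ± 89.1 with scrambled RNA (log2 change 0.33, adjusted p = 0.00614). Of the proliferation markers 2 of 24 fell and 2 rose, PCNA being lower (12015 ± 805 with siDHX9 and 16892 ± 1916 with scrambled RNA) and CDC6 higher by 0.36 on the log2 scale (adjusted p = 0.021).

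The drug effect minus the knockdown effect was tested directly, with no library shared between the 2 effects. It was lower than 0 for 11 of the 34 genes by limma, against 5.29% of all genes tested. By edgeR it was lower for 14, against 855 of all 14225 genes, and by DESeq2 for 17, against 1126. It was higher for none of the 34 by any of these tools. Among all genes tested it was higher for 4.4% by limma, 618 genes by edgeR and 971 by DESeq2. No member gene was higher at an unadjusted p under 0.05, a cut for which the share of all genes was not computed. The median difference was -0.37, against 0.03 over all genes. It was not particular to the recombination genes. Of the 24 S phase and proliferation markers 12 were lower (50%, against 32.4% of the 34 genes) and 1 higher, with a median of -0.43. The drug and knockdown experiments also differ in time and in transfection, and the part of these in the difference was not tested. Among the 34 genes FANCI differed most, at -0.88 ± 0.10 SE (adjusted p = 0.000226), its drug effect being -0.98 and its knockdown effect -0.11. RAD51AP1 differed by -0.79 ± 0.17 (adjusted p = 0.0114) and RBBP8 by -0.76 ± 0.11 (adjusted p = 0.00138). RBBP8 averaged 3207 ± 186 in siDHX9 and 2944 ± 243 in scrambled libraries, a change of 0.12 that was not called.

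ATM and BLM had differences of -0.67 each (adjusted p = 0.015 and 0.00812), and EXO1, UBE2T and BRCA2 of -0.64 each (adjusted p = 0.002, 0.000681 and 0.0302). UBE2T had 6563, 6587 and 6769 normalised reads in siDHX9, against 5918, 5993 and 6002 in scrambled libraries, so its estimate after knockdown was above 0 (0.15, adjusted p = 0.0973). FANCL differed by -0.59 (adjusted p = 0.0227), FANCG by -0.54 (adjusted p = 0.0339) and RAD54B by -0.54 (adjusted p = 0.024). FANCG had 1349, 1638 and 1512 normalised reads in YK4279 libraries, against 1923, 2120.1 and 2061 in DMSO, and averaged 2174 ± 293 in siDHX9 and 2017 ± 98.8 in scrambled (SD, n = 3 each). Among the 4 genes called in both comparisons limma called none here. FANCD2 was called by DESeq2 and without siDHX9 replicate 3 (adjusted p = 0.0235 to 0.0281), and XRCC2 without siDHX9 replicate 3 (adjusted p = 0.0307). The limma intervals of the difference were -0.44 to 0.29 for FANCA, -0.78 to -0.15 for FANCD2, -0.81 to 0.06 for XRCC2 and -0.75 to 0.60 for GEN1. The calls for FANCI, RAD51AP1, RBBP8, BLM, EXO1 and UBE2T held under all 22 alternatives. The count was 7 without DMSO replicate 3, without scrambled replicate 1 or with the ribosomal RNA entry left out of the scaling.

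The controls themselves differed for a few genes. Scrambled libraries set against DMSO libraries differ in transfection, culture and time, which cannot be told apart, and 5 of 34 genes were called, 4 lower and 1 higher, against 9.22% lower and 9.7% higher among all genes tested. XRCC3 had 880.0, 799.9 and 906 normalised reads in scrambled, against 1023, 1216 and 1244 in DMSO (log2 change -0.43 ± 0.11 SE, adjusted p = 0.0171). NBN averaged 1616 ± 76.3 in scrambled and 2138 ± 106 in DMSO (log2 change -0.40, adjusted p = 0.0205), and ATR and RBBP8 changed by -0.33 (adjusted p = 0.0239) and -0.27 (adjusted p = 0.0336). RAD54L was higher, at 3282 ± 297 in scrambled and 2749 ± 45.9 in DMSO (log2 change 0.25, adjusted p = 0.0431). The groups did not overlap for any of these 5 genes. The median over the 34 was 0.03, against 0.02 for all genes. The number called was 1 without DMSO replicate 1, 2 or 3 or scrambled replicate 1, 0 without scrambled replicate 2, 8 without siDHX9 replicate 2 and 9 without siDHX9 replicate 3, so this comparison too moves with single libraries. Of the S phase and proliferation markers 9 of 24 were lower and 0 higher here, with a median log2 change of -0.14. A difference between these markers and the 34 genes was not tested.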

How the data were processed

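Total RNA of 12 TC-71 libraries, 3 in each of 4 groups, was sequenced by the authors. The deposited table holds a signal per gene entry, read counts divided by a DESeq size factor per library (per the file name, which names DESeq normalisation), for 78885 FASTDB entries on hg19 (per the file headers). FastQC, Picard, SAMtools, STAR 2.4.0 and DESeq are named in the submitters' processing notes; the counting tool and its strand setting were not stated in the labels or the table. Whole reads were recovered from the deposited signal, low values being whole multiples of a step within 0.1 for 100% in each library; in 4 libraries 1 read is worth within 1% of 1, where this check cannot tell reads from rounding. Entries without a symbol, 3.91% to 4.90% of the signal, were left out of the main test. Values were analysed as log2(value + 1) with limma 3.58.1 (R 4.3.3) with a trend, over 14225 entries with a mean of at least 10, as 4 group means over 12 libraries, so all groups share 1 estimate of spread. P-values were adjusted by the Benjamini-Hochberg method over all entries, and called under 0.05. Fold changes are on this log2 scale and understate changes of low genes. The fit was tested on simulated data. Alternatives were an added value of 0.5 or 10, no minimum or a mean of 50, TMM, each comparison's 6 libraries alone, edgeR 4.0.16 and DESeq2 1.42.0 on recovered reads, a replicate block, and each library left out. Unnamed entries included and rescaling without the ribosomal RNA entry were added after seeing the data. Libraries of a group differed by more than counting noise, and unequally between groups. The chi-square per entry between a pair of libraries was 6.83 to 15.7 in DMSO and 7.56 to 20.7 in YK4279. It was 27.5 to 37.9 in scrambled and 26.5 to 78.8 in siDHX9. The shared spread can thus be too small for the knockdown comparison and too large for the drug comparison. Genes named with values in every library are those called with the largest change in each role (up to 3 with YK4279) and those called after knockdown or in the difference (up to 10); overlapping genes, DHX9 and up to 3 called genes of each other list are also named; some of these are not reported here. Members, lists and rules were chosen with earlier results of these data known. Promoter sequences are from RefSeq, GRCh38.p14.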

Additional observations from a re-analysis of the deposited data

How the results depend on the processing

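For YK4279 minus DMSO the number of genes called was 17 to 23 with single libraries left out and 20 to 26 under the other settings, always within 1.5 times of 22, and the median stayed between -0.50 and -0.55. Other counts moved more. For siDHX9 minus scrambled (4 called) the number was 1 with no minimum, 0 with 6 libraries only, 8 with DESeq2 and 2 with the replicate block, and 0 to 11 with single libraries left out; the median was -0.23 when rescaled without the ribosomal RNA entry and -0.18 to -0.09 with single libraries left out. For scrambled minus DMSO (5 called) it was 8 with DESeq2, 3 with the replicate block and 0 to 9 with single libraries left out, and the median was 0.10 when rescaled and -0.048 to 0.061 with single libraries left out, being reversed without DMSO replicate 3 (-0.0137) and without scrambled replicate 2 (-0.048). For the difference (11 called) it was 17 with DESeq2, 7 when rescaled and 7 to 14 with single libraries left out, and the median was -0.33 when rescaled and -0.45 to -0.33 with single libraries left out. The cause was not tested. Rescaling also shifted all genes, by a median of -0.09 for siDHX9 minus scrambled and 0.10 for scrambled minus DMSO; its split over all genes was 1524 lower and 875 higher, against 1134 and 1244 in the scaling as deposited, and 978 lower and 1834 higher, against 1312 and 1380. The 6 libraries alone called 1945 genes lower and 2325 higher with YK4279, against 923 and 1042, and 198 lower and 294 higher with siDHX9, against 1134 and 1244. Same-numbered libraries correlated at 0.12, 0.05 and -0.01 (YK4279 and DMSO) and at 0.05, 0.06 and 0.08 (siDHX9 and scrambled). Each siDHX9 library matched the scrambled library of its own number best. Of the YK4279 libraries only replicate 1 matched its own number in DMSO best. The labels give no pairing and the correlations were low, so the numbers were not taken to pair samples. With the replicate block the count was 20 for YK4279 minus DMSO and 2 for siDHX9 minus scrambled. The difference has no value with 6 libraries only. Depth ranges overlap between groups; genes near 100 normalised reads, such as BARD1 and RAD52, have intervals over 1 log2 unit wide.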

Other observations

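Some partners of the measured genes were chosen after their values were seen. MRE11, the nuclease that works with RAD50 and NBN, averaged 2177 normalised reads in YK4279 and 3426 in DMSO (log2 change -0.65, adjusted p = 0.00022). RAD50 and NBN were not called, and a difference between these genes was not tested. RMI1, a partner of BLM, averaged 1354 in YK4279 and 2119.9 in DMSO (log2 change -0.65, adjusted p = 0.00329). USP1, which removes the ubiquitin from FANCD2, averaged 4413 in YK4279 and 6929 in DMSO (log2 change -0.65, adjusted p = 0.000923). FAAP20, an accessory protein of the Fanconi core, was higher, at 3318 in YK4279 and 2204 in DMSO (log2 change 0.59, adjusted p = 0.0445).

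An entry without a symbol, GSHG0145676 on chromosome 14 from 45605141 to 45670092 in hg19, covers the whole FANCM entry, which is itself listed at 0 in 11 libraries. It had 858, 807 and 946 normalised reads in YK4279 libraries, against 1368, 1368 and 1206 in DMSO, and 1012, 1013 and 835 in siDHX9, against 1215, 1149 and 1446 in scrambled libraries. No group overlapped its control. With entries lacking a symbol included in the limma fit, the log2 change was -0.59 with YK4279 (adjusted p = 0.0048) and -0.41 with siDHX9 (adjusted p = 0.0296). Which gene its reads belong to was not tested.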
